A study of Mus musculus with 7 samples.

Results

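The genes described here copy DNA and supply its building blocks. The set holds 50 genes, chosen by function with earlier results of these data known. Their expression was read from every probe set that the platform annotation assigns to 1 of them alone. A probe set is a group of short oligonucleotides on the array that reports 1 transcript. Such probe sets were present for 49 of the 50 genes, among 11089 genes tested in the series. Chaf1a, a subunit of the chromatin assembly factor, had no probe set of its own in this annotation and has no value here.

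The samples were cerebellar granule neuron precursors from mice of the genotype Math1-Cre/Ptc-loxp/Nestin-CFP, sorted by flow cytometry into Nestin-positive and Nestin-negative cells. All samples carried the same 3 alleles: a Cre recombinase driven by Math1 (Atoh1), which acts in the granule lineage, a Ptch1 allele that Cre removes, and a cyan fluorescent reporter of Nestin. Both groups thus carried the conditional allele of Ptch1, the Hedgehog receptor, whose zygosity the genotype name does not give, and no sample without Cre was part of the comparison. The brightest Ptch1 probe set read 13180, 12780, 12999 and 12827 in Nestin-positive and 11511, 11606 and 10588 in Nestin-negative cells (limma, adjusted p = 0.327), and whether it lies in the deleted part is not known here, so it does not check the deletion. RNA came from uncultured, untreated cells, 1 array per sample: 4 of Nestin-positive cells, numbered 1, 3, 4 and 5, and 3 of Nestin-negative cells, numbered 1, 4 and 5. Age was postnatal day 7 by the sample labels, which call the tissue medulloblastoma, and postnatal day 4 by the series description. The labels do not say if each array came from a separate animal or from pooled animals, so p-values measure the spread between these samples, which may be technical.

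Replication of a chromosome starts at origins. The origin recognition complex binds them, Cdc6 and Cdt1 load the ring-shaped helicase made of Mcm2 to Mcm7 onto DNA in G1 (licensing), and geminin (Gmnn) blocks Cdt1 once S phase has begun. Cdc45, the GINS complex and Mcm10 then activate the helicase, primase and DNA polymerases copy the strands with the sliding clamp PCNA, and ribonucleotide reductase and the thymidylate enzymes supply deoxynucleotides. Many of these genes are transcribed under E2F factors at the passage from G1 to S phase. In the postnatal cerebellum, Hedgehog signalling keeps granule neuron precursors dividing, and they leave the cell cycle as they become neurons.

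The array values are MAS5 signal intensities, a linear scale, with array medians between 64.4 and 94.5. The probe set standing for each of the 49 genes, its brightest, lay above the array median on all 7 arrays. Differences are log2 changes, Nestin-positive minus Nestin-negative, so that 1 unit is a doubling. Nes itself, which the reporter tracks, had intensities of 478, 829, 722 and 543 in Nestin-positive and 179, 174 and 217 in Nestin-negative cells (exact two-sided permutation test, p = 0.0286, the smallest that 4 against 3 arrays allow). This follows the sort and is a check of the labels. Of the precursor markers, Atoh1 lay between 2222 and 5318, Zic1 between 17650 and 22941 and Pax6 between 6897 and 8700 on the 7 arrays. The transcripts of Atoh1, Zic1 and Pax6 thus lay above the array median on every array of both groups. Atoh1 was not called without a replicate block, described below (0.39 ± 0.27, limma, adjusted p = 0.576), and rose with it (0.35 ± 0.10, 0.0366). Zic1 and Pax6 had changes of the opposite sign and were called in neither fit. Zic1 was lower on every Nestin-positive array (-0.18 ± 0.09, limma, adjusted p = 0.447), where 9.11% of all genes were. Pax6 changed by -0.16 ± 0.10 (limma, adjusted p = 0.533) with overlapping groups.

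Replication and nucleotide synthesis genes were slightly higher in Nestin-positive cells for the most part. Of the 49 measured genes, 45 had a positive log2 change (91.8%), whereas 45.5% of all genes tested did. The median change of the 49 was 0.21, or 1.15-fold, beside a median of -0.03 over all genes. Single genes ranged from -0.30 (E2f1) to 0.52 (Pola1, 1.43-fold). The fit without a replicate block called 0 of the 49 (limma, smallest adjusted p = 0.173), where 0.748% of all genes were called (0.171% higher and 0.577% lower). At an unadjusted p under 0.05 it listed 10 members, all higher (20.4% of the 49, beside 5.33% of all genes higher at that level). In 14 members every Nestin-positive array exceeded every Nestin-negative array (28.6%, where 5.87% of all genes did so), and in 1, E2f1, every Nestin-positive array was lower (2.04%, where 9.11% of all genes did so).

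Replicates with the same number deviated together over all genes, so the number was also fitted as a block, which compares the 3 pairs of replicates 1, 4 and 5. The block left 2 residual degrees of freedom per gene, which limma raised to a median of 19.8 by drawing on the spread of other genes. Standard errors and p-values with the block thus rest mostly on other genes. With the block 6 members rose and 0 fell: Pola1, E2f8, Mcm10, Tk1, Rfc3 and Orc2 (12.2% of the 49, where 3.58% of all genes rose, 6.39% fell and 9.97% changed in either direction). The labels do not state what a shared number means, so the pairing was read from the data, and the calls depended on it. They also depended on replicate 1: without that pair, 0 of the 6 were called and the only member called was Ccne1. Without pair 4, 5 of the 6 were called, and without pair 5, 3 were. Under 2 further blocked fits chosen after seeing the data, the called members also changed. After quantile normalization, Orc2 (adjusted p = 0.0995), Rfc3 (0.0953) and Tk1 (0.0509) were not called, and Mcm6 (0.0441) and Rrm1 (0.0497) were. When all probe sets were fitted, E2f8 was the only member called (0.0459). The median change over the members was 0.12 without Nestin-negative replicate 1, which had the lowest intensity of the 7 arrays for 32 of the 49 genes (65.3%, where 22.6% of all genes were lowest there). By pair, 41 members were higher in Nestin-positive cells in pair 1, 45 in pair 4 and 41 in pair 5, with median differences of 0.27, 0.26 and 0.14, where the median over all genes was -0.03, 0.00 and -0.02. In all 3 pairs, 33 members were higher (67.3%, where 19.0% of all genes were).

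**Figure D1:**
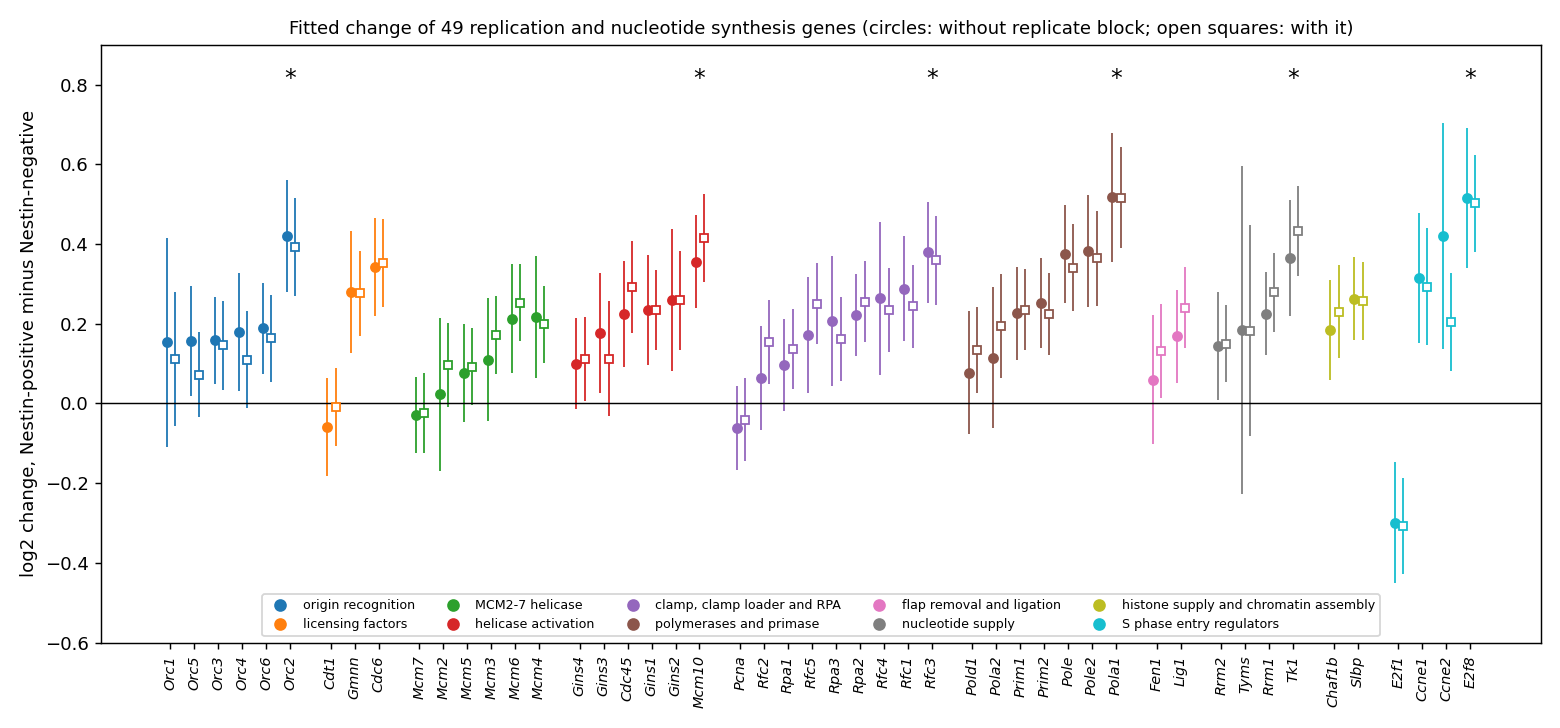
Log2 change (Nestin-positive minus Nestin-negative, vertical axis) of each of the 49 measured genes, ordered within its role; filled circles are the fit without a replicate block, open squares the fit with it, bars are standard errors, and asterisks mark the 6 genes called with the block. Nearly all points lie between 0 and 0.52, and E2f1 is lowest at -0.30.

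Promoter sequences are shown because E2F sites are a well-known control element of many of these genes and because most members had changes of the same sign. The RefSeq-based table (GRCm38.p6) held windows of 300 bases, from 250 before to 50 after a start site, for 41 of the 50 genes, in 48 windows since some genes have more than 1. Each was searched on both strands for the E2F-like motifs TTTCCCGC and TTTGGCGC. A match was found in 12 of the 48 windows (25.0%), which belong to 12 genes, and in 514 of all 32851 windows in the table (1.56%). The members' windows were also richer in G and C (median 61.8%, against 52.7% over all windows), and the part of base composition in this difference was not tested. CCAAT, searched the same way, was present in 56.2% of the members' windows and 37.4% of all windows. None of the 14 E2F-like matches overlapped another or a CCAAT match. Matches were found in 4 of 5 Mcm2 to Mcm7 genes with a window, in both licensing genes with one, Cdc6 and Cdt1, and in 3 of 5 polymerase and primase genes. A match was also found in 1 of 6 origin recognition genes, 1 of 3 helicase activation genes and 1 of 8 clamp, loader and RPA genes. Neither sequence was found in the windows of 4 nucleotide supply, 2 flap and ligation, 3 histone supply and chromatin assembly or 3 S phase entry genes. Only exact matches to the 2 sequences were counted, so a window without a match may still hold a variant E2F site.

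The matches of 10 genes are printed below 5′ to 3′ in the direction of the gene, with the motif or its reverse complement in capitals and up to 10 bases of flank, to let the helicase, licensing and polymerase genes be compared. Those of Mcm5, Mcm6, Mcm7, Gins3, Cdc6 and Orc3 lie before the start site, between 41 and 165 bases from it, and those of Mcm3, Cdt1, Pold1 and Pole2 lie 10 to 39 bases after it.
Mcm3 (chr1:20820263-20820284, minus strand): cttgggaagtTTTGGCGCcaag
Mcm3 (chr1:20820276-20820303, minus strand): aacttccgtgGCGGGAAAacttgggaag
Mcm5 (chr8:75109350-75109377, plus strand): aagaactttcGCGCCAAAacgtccagcc
Mcm6 (chr1:128359735-128359762, minus strand): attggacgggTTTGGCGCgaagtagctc
Mcm6 (chr1:128359798-128359825, minus strand): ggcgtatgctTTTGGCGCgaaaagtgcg
Mcm7 (chr5:138172031-138172058, minus strand): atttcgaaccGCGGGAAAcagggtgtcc
Gins3 (chr8:95633508-95633535, plus strand): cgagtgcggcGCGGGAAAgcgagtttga
Cdc6 (chr11:98908003-98908030, plus strand): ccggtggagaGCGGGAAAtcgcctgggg
Cdt1 (chr8:122568037-122568064, plus strand): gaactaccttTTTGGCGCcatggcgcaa
Orc3 (chr4:34614966-34614993, minus strand): catgcctcccTTTCCCGCacgccccgcc
Pold1 (chr7:44548766-44548786, minus strand): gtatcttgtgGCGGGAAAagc
Pole2 (chr12:69228163-69228190, minus strand): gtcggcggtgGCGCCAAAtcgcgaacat

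Among the 6 genes called with the block, Pola1 and Rfc3 held a match, and E2f8, Tk1, Mcm10 and Orc2 held none in their windows. The Pola1 match begins 138 bases before the start site, and that of Rfc3 begins at it. Their sequence before the start site is given, with 8 further bases for Rfc3, because these genes carry both a call and a match. Capitals again mark the motif, and variants of it are not marked. Each window holds 1 CCAAT match.
Pola1 promoter (chrX:93632156-93632405, minus strand): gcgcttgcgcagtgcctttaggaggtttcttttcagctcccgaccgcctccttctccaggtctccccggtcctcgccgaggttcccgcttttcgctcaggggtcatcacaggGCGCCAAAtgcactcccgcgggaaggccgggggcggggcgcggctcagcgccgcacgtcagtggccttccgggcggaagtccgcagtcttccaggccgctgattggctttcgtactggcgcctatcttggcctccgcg
Rfc3 promoter (chr5:151651201-151651458, minus strand): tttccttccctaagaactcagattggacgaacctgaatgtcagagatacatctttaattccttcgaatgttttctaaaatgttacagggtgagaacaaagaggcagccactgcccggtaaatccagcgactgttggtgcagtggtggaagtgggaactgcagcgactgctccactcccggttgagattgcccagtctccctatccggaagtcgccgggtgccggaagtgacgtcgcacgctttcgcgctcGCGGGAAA

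The changes of genes with and without a match are given side by side, with no test of the difference. The 12 genes with a match had a median log2 change of 0.17, between -0.06 and 0.52, and the 28 measured genes with a window and no match had a median of 0.19, between -0.30 and 0.52.

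The origin recognition complex had positive log2 changes in all of its 6 subunits, with a median of 0.17 (0.13 with the block). Orc2, a core subunit, had intensities of 1112, 1187, 1039 and 1143 in Nestin-positive cells (replicates 1, 3, 4 and 5) and of 686, 962 and 884 in Nestin-negative cells (replicates 1, 4 and 5). All Nestin-positive arrays were above all Nestin-negative ones, and the distance was largest for replicate 1. Its log2 change was 0.42 ± 0.14 (SE, n = 4 and 3; limma, adjusted p = 0.202), and with the block it rose 1.31-fold (0.39 ± 0.12, adjusted p = 0.0478; 0.24 and 0.507 without pair 1). Its 3 probe sets gave changes of 0.42, 0.40 and 0.47. Orc6, the smallest subunit, also did not overlap (1639 to 2002 against 1544 to 1638, log2 change 0.19 ± 0.11, adjusted p = 0.504), nor did Orc3 (1107 to 1208 against 989 to 1106). Their distance was small, as the lowest Nestin-positive array was barely above the highest Nestin-negative array in each. Orc1, the subunit whose level is cell cycle regulated, was the most variable of the 6, at 360, 273, 185 and 215 in Nestin-positive and 294, 178 and 218 in Nestin-negative cells. In both groups replicate 1 was the highest, and the groups overlapped. Orc4 and Orc5 had log2 changes of 0.18 ± 0.15 and 0.16 ± 0.14 with overlapping groups.

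Among the licensing factors, Cdc6 separated the groups, and Cdt1 and Gmnn did not. Cdc6, the ATPase that brings the helicase to the origin, read 1380, 1341, 1300 and 1464 in Nestin-positive and 948, 1110 and 1200 in Nestin-negative cells, with no overlap. Its log2 change was 0.34 ± 0.12 (limma, adjusted p = 0.234), and with the block 0.35 ± 0.11 at an adjusted p of 0.05, not below the threshold. Gmnn, the inhibitor of Cdt1, read 2740 to 3225 in Nestin-positive cells and 1947, 2699 and 2997 in Nestin-negative cells. These overlapped, although each Nestin-positive sample was above its partner (0.28 ± 0.15, adjusted p = 0.458). Cdt1, the partner of Cdc6 in loading, read 6944, 7032, 8621 and 8853 against 7466, 8294 and 8712. Its groups lay on top of each other (-0.06 ± 0.12, adjusted p = 0.871), and its second kept probe set gave 0.08, so that even the sign was not settled.

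The replicative helicase itself showed a small difference. The 6 genes Mcm2 to Mcm7 had a median log2 change of 0.09 (0.13 with the block), none of them separated the groups, and each had overlapping arrays. Mcm6 read 8928, 9383, 11370 and 11385 in Nestin-positive and 7497, 9143 and 9969 in Nestin-negative cells (0.21 ± 0.14, adjusted p = 0.537; 0.25 ± 0.10 and 0.113 with the block). Mcm4 had a log2 change of 0.22 ± 0.15, Mcm3 of 0.11 ± 0.15 and Mcm5 of 0.08 ± 0.12. Of the helicase genes with 2 kept probe sets, the second gave 0.40 for Mcm4, 0.31 for Mcm6 and 0.01 for Mcm2. Mcm2 read 3410, 3519, 5120 and 4605 against 3139, 4185 and 5006, which shows replicate 1 low and replicates 4 and 5 high in both groups (0.02 ± 0.19, adjusted p = 0.974). Mcm7 read 14288, 15203, 17118 and 15038 against 15887, 15714 and 15455 (-0.03 ± 0.10, adjusted p = 0.923). Quantile normalization turned the sign of Mcm7 (0.04), so its direction was not settled.

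Helicase activation factors had a median log2 change of 0.23, and all 6 were positive. Mcm10, which joins the helicase when the origin fires, read 1297, 1071, 1239 and 1253 in Nestin-positive cells, above 936, 969 and 937 in Nestin-negative cells. The Nestin-negative arrays were close to each other (947 ± 18.9, SD, n = 3), and every Nestin-positive array was above them (1215 ± 99.0, n = 4). The log2 change was 0.36 ± 0.12 (adjusted p = 0.193), and with the block Mcm10 rose 1.33-fold (0.41 ± 0.11, adjusted p = 0.0182; 0.39 and 0.113 without pair 1). Cdc45, the helicase cofactor, read 749 to 975 against 671 to 780 (0.22 ± 0.13, adjusted p = 0.500; 0.29 ± 0.12 and 0.125 with the block). Of the GINS complex, the ring that completes the active helicase, Gins1 had a log2 change of 0.23 ± 0.14, Gins2 of 0.26 ± 0.18, Gins3 of 0.18 ± 0.15 and Gins4 of 0.10 ± 0.12, all with overlapping groups.

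The enzymes that start and extend the new strand held the most genes whose groups were separated. All 7 genes of the polymerases and primase had positive changes, with a median of 0.25, and 4 of them did not overlap, where 5.87% of all genes were higher without overlap. Pola1, the catalytic subunit of polymerase alpha, read 1765, 1759, 1592 and 1929 in Nestin-positive and 935, 1433 and 1383 in Nestin-negative cells. Nestin-negative replicate 1 was lowest by far, yet the other 2 Nestin-negative arrays also lay below every Nestin-positive array. The log2 change was 0.52 ± 0.16 (limma, adjusted p = 0.173), and with the block Pola1 rose 1.43-fold (0.52 ± 0.13, adjusted p = 0.0107; 0.32 and 0.219 without pair 1). Pole, the catalytic subunit of the leading strand polymerase epsilon, read 1578, 1560, 1265 and 1430 against 1205, 1105 and 1055 (0.38 ± 0.12, adjusted p = 0.197; 0.34 ± 0.11 and 0.0529 with the block). Its accessory subunit Pole2 read 1582, 1638, 1469 and 1609 against 974, 1304 and 1381 (0.38 ± 0.14, adjusted p = 0.245; 0.36 ± 0.12 and 0.0569 with the block). Pole and Pole2 thus had all 4 Nestin-positive arrays above all 3 Nestin-negative ones, at adjusted p-values that missed the threshold in both fits. The other subunits of polymerase epsilon are not members of this set. Prim2, the large primase subunit, was also separated, at 1935 to 2235 against 1605 to 1871 (0.25 ± 0.11, adjusted p = 0.347). Prim1, the catalytic primase subunit, had a log2 change of 0.23 ± 0.12, Pola2 of 0.12 ± 0.18 and Pold1, the catalytic subunit of the lagging strand polymerase delta, of 0.08 ± 0.15. Prim1, Pola2 and Pold1 had overlapping groups.

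**Figure D2:**
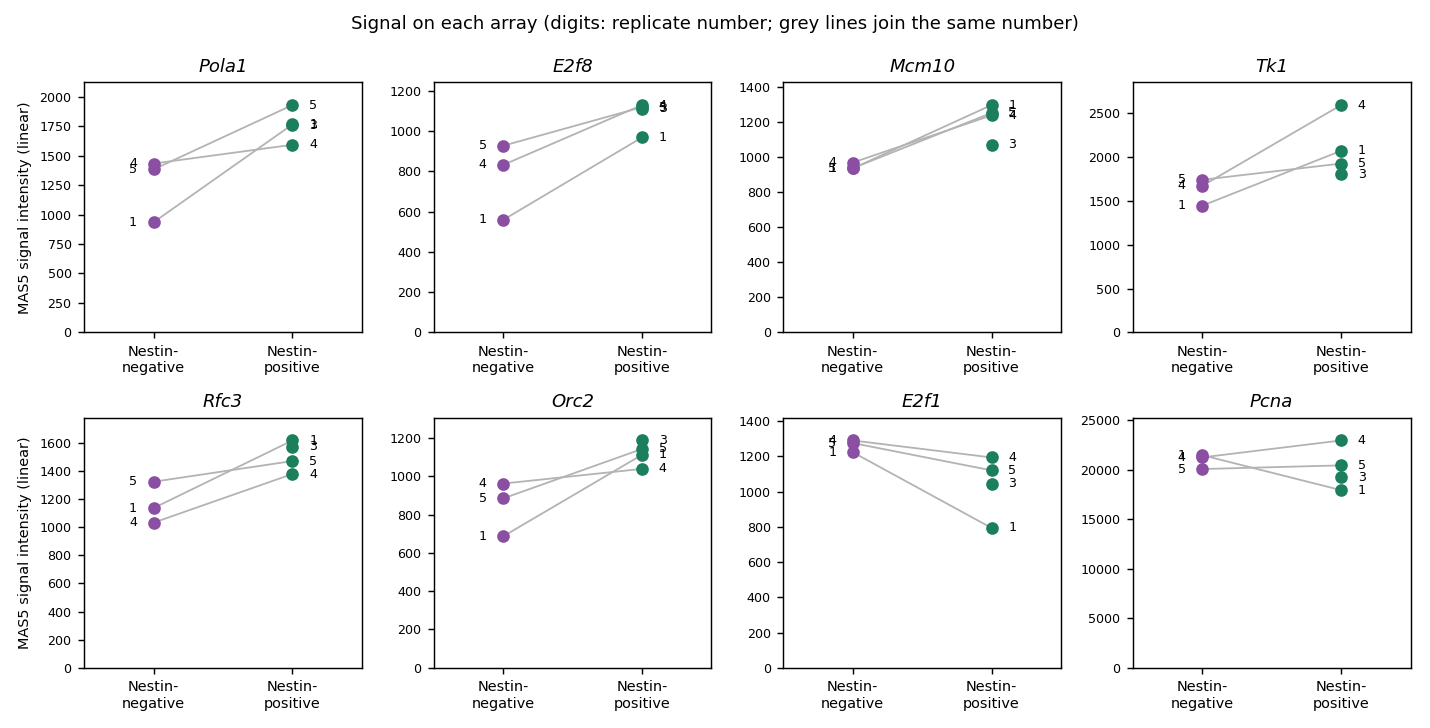
MAS5 signal intensity (linear axis from 0) on each array for the 6 genes called with the replicate block and for E2f1 and Pcna; points are arrays, digits are replicate numbers and grey lines join samples with the same number. Every Nestin-positive point of the first 6 genes is above every Nestin-negative point, the reverse holds for E2f1, and the groups of Pcna overlap.

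The sliding clamp overlapped between the groups, and 1 subunit of its loader rose in the blocked fit. Pcna, the clamp that holds polymerases on DNA, read 17924, 19211, 22938 and 20425 in Nestin-positive and 21454, 21232 and 20056 in Nestin-negative cells. The groups overlapped and the mean was slightly lower in Nestin-positive cells (-0.06 ± 0.10, adjusted p = 0.838), with the sign turned by quantile normalization (0.04). Rfc3, a small subunit of the clamp loader, read 1618, 1573, 1379 and 1472 against 1137, 1033 and 1324, without overlap. Its change was 0.38 ± 0.13 (adjusted p = 0.201), and with the block it rose 1.28-fold (0.36 ± 0.11, adjusted p = 0.0449; 0.28 and 0.327 without pair 1). The other loader subunits had log2 changes of 0.29 ± 0.13 (Rfc1, the large subunit), 0.26 ± 0.19 (Rfc4), 0.17 ± 0.15 (Rfc5) and 0.06 ± 0.13 (Rfc2), with overlapping groups. Of the single-strand binding protein RPA, Rpa2 was separated, at 2186 to 2518 against 1981 to 2039 (0.22 ± 0.10, adjusted p = 0.368), and Rpa1 and Rpa3 had log2 changes of 0.10 ± 0.12 and 0.21 ± 0.16. The flap endonuclease gene Fen1 and the DNA ligase gene Lig1, which finish the lagging strand, had log2 changes of 0.06 ± 0.16 and 0.17 ± 0.12. Both overlapped between the groups.

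Nucleotide supply was carried by 4 genes, all positive, with a median of 0.20. Tk1, the S phase thymidine kinase of the salvage route, read 2069, 1802, 2590 and 1924 in Nestin-positive and 1444, 1670 and 1739 in Nestin-negative cells. The groups did not overlap, although Nestin-positive replicate 3 came close to the highest Nestin-negative array. Its log2 change was 0.36 ± 0.15 (limma, adjusted p = 0.290) and it rose 1.35-fold with the block (0.43 ± 0.11, adjusted p = 0.0166; 0.39 and 0.0706 without pair 1). Rrm1, the large subunit of ribonucleotide reductase, read 8057, 6969, 8422 and 7784 against 6520, 6386 and 7110, where 1 Nestin-positive array was below the highest Nestin-negative one (0.22 ± 0.10, adjusted p = 0.365; 0.28 ± 0.10 and 0.0869 with the block). Its small subunit Rrm2 had a log2 change of 0.14 ± 0.13 with wide overlap. Tyms, the thymidylate synthase gene, was measured poorly: its brightest probe set with this gene alone read 273, 137, 73.3 and 128 against 167, 118 and 89.0, close to the array medians of 64.4 to 94.5, and its standard error of 0.41 was the widest of the members.

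Set side by side, the median changes of the licensing, helicase, polymerase and nucleotide roles ran from 0.09 (helicase) to 0.28 (licensing factors, 3 genes). The S phase entry regulators, described below, had a higher median of 0.37. Origin recognition had 0.17, nucleotide supply 0.20 and polymerases and primase 0.25. With the block the medians were 0.13 (helicase), 0.28 (licensing factors), 0.13 (origin recognition), 0.23 (nucleotide supply) and 0.23 (polymerases and primase). The differences between these roles were not tested. To compare their patterns over the arrays, the log2 value of each gene was taken relative to its mean over the 7 arrays and averaged over the genes of a role. Polymerase and primase genes stood at 0.09, 0.09, 0.15 and 0.14 in Nestin-positive samples and at -0.35, -0.10 and -0.02 in the Nestin-negative ones. Here the 4 Nestin-positive arrays agreed closely and the Nestin-negative ones were spread. Nucleotide supply genes stood at 0.30, 0.00, 0.01 and 0.07 against -0.13, -0.12 and -0.15, with Nestin-positive replicate 1 highest. This pattern rested on Tyms, whose intensities were close to the array medians. Without Tyms, the 3 genes Rrm1, Rrm2 and Tk1 stood at 0.05, -0.02, 0.29 and 0.10 against -0.29, -0.11 and -0.02, with Nestin-positive replicate 4 highest, Nestin-negative replicate 1 lowest and a slight overlap of the groups. Origin recognition genes stood at 0.19, 0.22, -0.03 and -0.02 against -0.15, -0.10 and -0.12. The Mcm2 to Mcm7 genes stood at -0.16, -0.05, 0.20 and 0.17 against -0.28, -0.01 and 0.12, so that replicate 1 was lowest in each group and the groups overlapped.

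**Figure D3:**
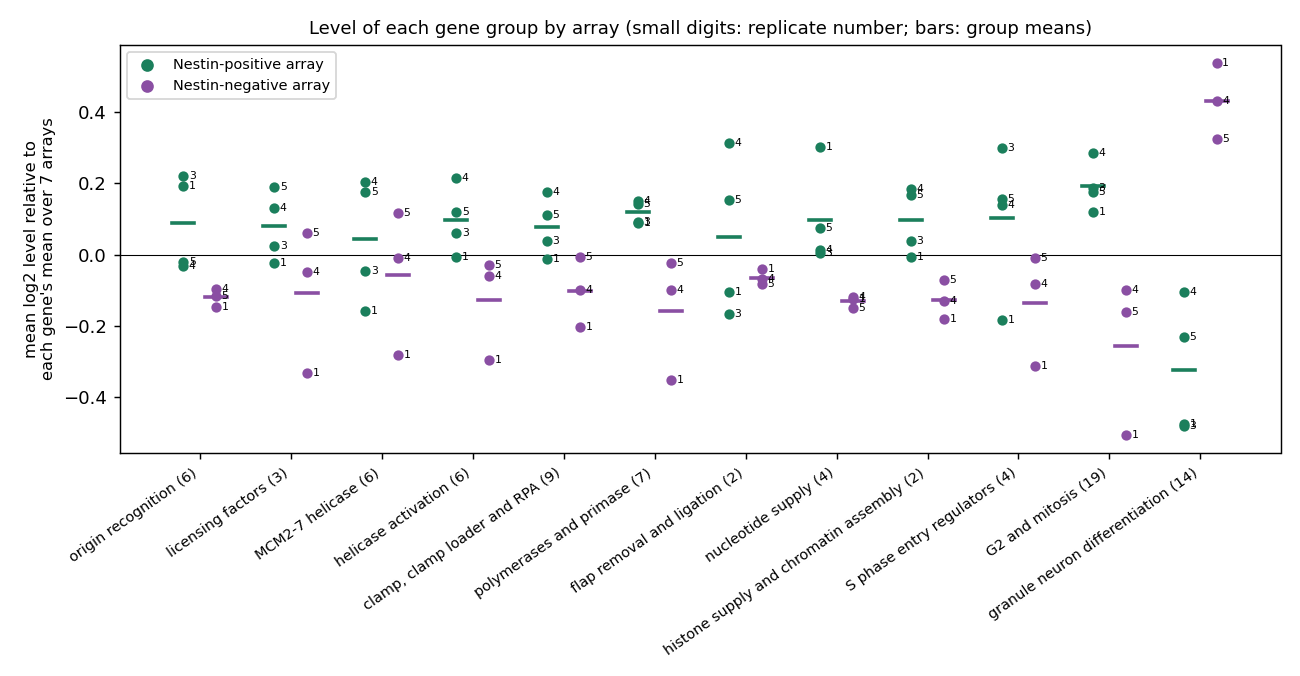
Mean log2 level of the genes of each role on each array, relative to each gene's own mean over the 7 arrays (vertical axis), for Nestin-positive (green) and Nestin-negative (purple) arrays, with replicate numbers as digits, group means as bars and the number of measured genes in brackets. Polymerase genes are tight on Nestin-positive arrays (0.09 to 0.15), helicase genes overlap between groups, and the mitotic and neuronal lists at the right have levels of opposite sign.

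Histone supply and chromatin assembly were represented by Slbp, which binds the stem-loop of histone mRNAs, and Chaf1b. Slbp read 7229, 7721, 7739 and 7801 in Nestin-positive and 5607, 6760 and 6751 in Nestin-negative cells, with no overlap (0.26 ± 0.10, adjusted p = 0.288; 0.26 ± 0.10 and 0.111 with the block). Chaf1b, a subunit of the chromatin assembly factor, had a log2 change of 0.19 ± 0.13 with overlapping groups.

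The regulators of S phase entry had changes of both signs, with a median of 0.37 (0.25 with the block). E2f8, an atypical E2F that represses E2F targets late in S phase and is itself an E2F target, read 968, 1111, 1129 and 1119 in Nestin-positive and 559, 832 and 927 in Nestin-negative cells. Replicate 1 was the lowest array in each group, and the groups did not overlap. The change was 0.52 ± 0.18 (adjusted p = 0.211), and with the block E2f8 rose 1.42-fold (0.50 ± 0.12, adjusted p = 0.0104; 0.36 and 0.170 without pair 1). E2f1, the activating E2F of the G1 to S transition, had the opposite sign. It read 793, 1045, 1193 and 1120 in Nestin-positive and 1223, 1290 and 1275 in Nestin-negative cells, every Nestin-positive array lower. Its log2 change was -0.30 ± 0.15 (adjusted p = 0.416; -0.31 ± 0.12 and 0.120 with the block), and its second kept probe set gave -0.23. E2f1 did not pass in either fit; without pair 4 its blocked adjusted p was 0.0229. It was the sole member lower in all 3 pairs, where 23.0% of all genes were. The cyclin E genes, which activate Cdk2, overlapped between the groups. Ccne1 had a log2 change of 0.32 ± 0.16. Ccne2 had one of 0.42 ± 0.28 and read 902, 1966, 1084 and 1284 against 634, 1175 and 1102, its mean raised by Nestin-positive replicate 3, which has no partner; with the block its change was 0.20 ± 0.12 (adjusted p = 0.372).

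Several probe sets per gene allowed the direction to be compared within genes. The 49 genes had 109 probe sets, of which 94 passed the filter on dim values. Of these 94, 87 had a positive change, where 51.1% of all kept probe sets did. Probe sets of the same gene are not independent. Of the 32 genes with more than 1 kept probe set, 28 had the same sign in all of them. The exceptions were Cdt1, Mcm3, Mcm7 and Rfc2. The 5 probe sets of Mcm3 ranged from -0.32 to 0.57, the lowest being below the array median on 3 arrays. In 22 of the 32 genes the brightest probe set, which stands for the gene here, had the lowest change, and in 5 it had the highest. With the mean of a gene's kept probe sets the median over the members was 0.26 in place of 0.21.

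**Figure D4:**
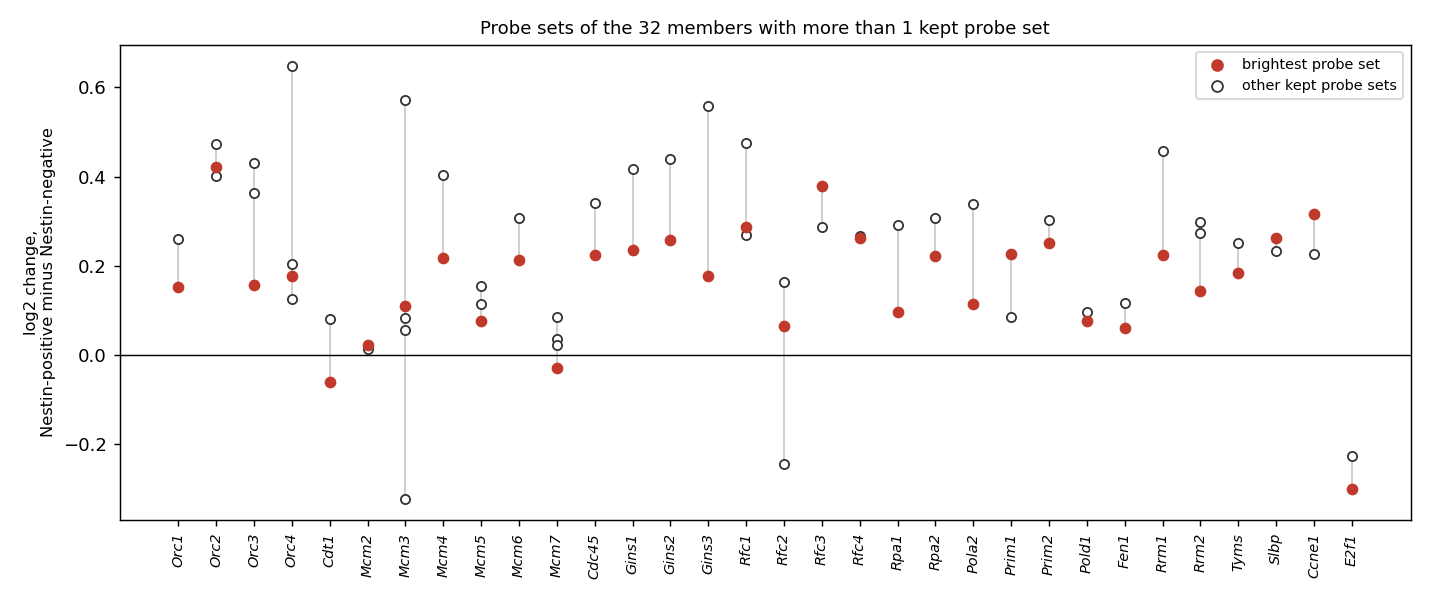
Log2 change (Nestin-positive minus Nestin-negative, vertical axis) of every kept probe set of the 32 members with more than 1, with the brightest in red and the others as open circles. In 28 genes all circles lie on the same side of 0, and in 22 the red point is the lowest.

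Other genes of the same processes were taken from lists of functions, of which 82 were measured: 0 passed without the block (17 at an unadjusted p under 0.05, where 14.4% of all genes were), and 11 rose and 0 fell with it, where 3.58% of all genes rose and 6.39% fell. Of 29 further replisome and origin firing genes, 24 were positive (median 0.22) and 3 rose with the block: Ticrr, which brings firing factors to the helicase (0.56 ± 0.14, adjusted p = 0.0146), Dbf4, the activating subunit of the Cdc7 kinase (0.41 ± 0.11, 0.0218), and Rif1, which opposes that kinase (0.38 ± 0.11, 0.0321). Dbf4 read 3008, 3760, 2978 and 2957 in Nestin-positive and 1816, 2474 and 2510 in Nestin-negative cells, without overlap.

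Further nucleotide synthesis genes had 20 of 29 positive and a median of 0.09, beside -0.03 over all genes. Of these, Shmt1, a serine hydroxymethyltransferase that feeds thymidylate synthesis (0.47 ± 0.11, adjusted p = 0.00672), and Prps2, which makes phosphoribosyl pyrophosphate for purine and pyrimidine synthesis (0.39 ± 0.12, 0.0446), rose with the block. Shmt1 read 1408, 1161, 1784 and 1770 against 1027, 1191 and 1364, with Nestin-positive replicate 3 inside the range of the Nestin-negative arrays.

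Of 11 further S phase chromatin genes, 10 were positive (median 0.25), and Hells, a chromatin remodeller, and the histone acetyltransferase gene Hat1 rose with the block (0.44 ± 0.12 and 0.35 ± 0.11, adjusted p = 0.0223 and 0.0438). Of 13 further S phase entry genes, 12 were positive (median 0.28) and 4 rose with the block. Skp2, a ubiquitin ligase subunit that targets the Cdk inhibitor p27, read 2753, 3246, 2592 and 2964 in Nestin-positive and 1988, 1998 and 2116 in Nestin-negative cells. These groups were well apart (0.50 ± 0.11, limma, adjusted p = 0.0841; 0.44 ± 0.10 and 0.00632 with the block). Fbxo5, an inhibitor of the anaphase-promoting complex in S phase, read 3252, 3209, 2915 and 2850 against 2183, 2336 and 2213 (adjusted p = 0.0934; 0.42 ± 0.10 and 0.0108 with the block). E2f7, the close relative of E2f8, rose 1.29-fold with the block (0.37 ± 0.11, adjusted p = 0.0355), and the S phase cyclin gene Ccna2 rose 1.26-fold (0.34 ± 0.10, 0.0327). Without pair 1, the blocked fit called 1 of the 82.

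Other groups of genes moved on the same arrays. A list of 19 measured G2 and mitosis genes had a median log2 change of 0.46, all positive, against 0.21 for the replication genes. Of the 19, 16 rose with the block, where 3.58% of all genes did. Without the block 0 passed, where 0.171% of all genes were called higher. At an unadjusted p under 0.05 it listed 13 of the 19, where 5.33% of all genes were higher. The level of the list ranged from 0.12 to 0.28 in Nestin-positive samples and was -0.51, -0.10 and -0.16 in the Nestin-negative ones. Replicate 1 was thus the lowest Nestin-negative array for mitotic as for replication genes. A list of 14 granule neuron differentiation genes had a median of -0.63, with summed intensities of 61775 to 76229 in Nestin-positive and 86447 to 96732 in Nestin-negative cells. In these bulk samples, fewer cells of a type and less RNA per cell cannot be told apart, and the part of this neuronal RNA in the replication genes' difference was not tested. All 9 measured microglia and macrophage markers fell with the block, as did 11 of the 14 neuronal genes, where 6.39% of all genes fell. So did 7 of the 8 pericyte and all 5 meningeal markers. Without the block, 2 of the 9 microglial markers and 4 of the 14 neuronal genes were called lower, where 0.577% of all genes were. In that fit, 0 pericyte and 0 meningeal markers were called. Summed intensities of the 9 microglia and macrophage markers were 291 to 1094 in Nestin-positive and 2077 to 7925 in Nestin-negative cells, and 2 of the 9 stayed under the array median in all 4 Nestin-positive samples. Those of 8 pericyte markers were 569 to 1942 against 1347 to 9276, and those of 5 meningeal markers 943 to 2674 against 2132 to 8629. Their part in the replication genes' difference was not tested. On Nestin-negative replicates 1, 4 and 5 the list levels were 0.90, 1.42 and 2.78 for microglia, -0.25, 1.59 and 2.01 for pericytes and -0.37, 1.74 and 1.85 for meningeal cells. The median change of 7 endothelial markers was -0.66 without and -0.39 with the block, and 0 were called in either fit. That of 11 astrocyte markers was -0.12 without and -0.51 with the block, which called 2 higher and 5 lower. For 6 oligodendrocyte markers it was -0.26 and -0.18 (2 higher and 2 lower with the block), and for 5 GABAergic neuron markers -0.37 and -0.76 (1 higher and 2 lower). For 11 precursor markers the sign turned, from -0.08 without to 0.044 with the block, which called 3 higher.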

How the data were processed

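RNA of sorted cells was hybridised to 1 single-colour Affymetrix array per sample. The deposited values are signal intensities made by the authors with MAS5, per the submitters' processing notes. Their trimmed mean is 500.0 on each array, so no further scaling was applied. Of 45037 probe sets without controls, 34945 named 1 gene in the platform annotation, 932 several and 9160 none. Probe sets at or above the array median on at least 3 arrays were kept (23585), and the brightest stood for its gene. The test on log2 intensities was that of limma (version 3.58.1, under R 4.3.3; intensity trend, Benjamini-Hochberg adjustment over all 11089 genes, threshold 0.05), run once without and once with a block for the number. Same-numbered samples correlated in their deviations from the group means (r = 0.71, 0.39 and 0.47 for numbers 1, 4 and 5), and samples of different numbers at -0.60 to 0.19. Every same-numbered pair was above 0.1, which was taken as pairing, although the labels do not state a shared litter or day. Some samples of different numbers were also above 0.1 (up to 0.19), so this limit alone does not set the pairs apart. Normalization, filter, probe set rule and left-out arrays were varied. Genes named in detail were those called in either fit, otherwise those with the smallest p of each role. The members and lists were chosen with earlier results of these data known. Promoter windows came from RefSeq (GRCm38.p6).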

Additional observations from a re-analysis of the deposited data

Results flagged for a closer look

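Some single arrays stood far from the others of their group, judged by the gap to the nearest array as a share of the group's range. Over the members' 4 Nestin-positive arrays, a gap above Dixon's critical value for 4 samples was taken as far. In all, 60 groups were tested, more than the 49 measured members, so the count also covers groups other than 1 per member. Chance gives such a gap in about 1 group in 20, and the groups shared the same arrays. Orc3 was low on Nestin-positive replicate 5 (1107 against 1194 to 1208, gap 0.867). Orc4 was high on replicate 3 (1069 against 869 to 894, gap 0.878). Replicate 1 was low for Rfc4 (3322 against 4344 to 4460, gap 0.899), for Slbp (7229 against 7721 to 7801, gap 0.860) and for E2f8 (968 against 1111 to 1129, gap 0.888). The lowest Nestin-positive array of Slbp and of E2f8 was still above every Nestin-negative array.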

How the results depend on the processing

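Across the 11089 genes, 83 were called without the replicate block and 1106 with it, and 695, 1446 and 869 when pair 1, 4 or 5 was left out of the blocked fit. Without the block, leaving out 1 array gave 0 to 93 genes, quantile normalization 22 (9 higher and 13 lower, against 19 and 64), no filter on dim values 52, the mean of a gene's probe sets 43, and 0 came from centring arrays on the median, from a fit on probe sets and from eBayes without an intensity trend. With the block, probe sets gave 1005 and quantile normalization 802. Members called were 0 in every fit without the block, 6 with it, 1, 10 and 3 without pair 1, 4 or 5, 1 on probe sets (E2f8) and 5 after quantile normalization (E2f8, Mcm10, Pola1, Mcm6 and Rrm1, without Orc2, Rfc3 and Tk1). Of the other pathway genes, 11 were called with the block, 1, 20 and 6 without pair 1, 4 or 5, and 5 on probe sets and 5 after quantile normalization. The probe set and quantile fits with the block were chosen after seeing the data. The members' median change was 0.12 to 0.24 with 1 array left out (0.12 without Nestin-negative replicate 1). That of licensing factors was 0.10 to 0.41 and that of clamp, loader and RPA genes 0.060 to 0.24. The median of Fen1 and Lig1 was 0.31 with the block without pair 1, and that of S phase entry regulators 0.17 on probe sets with the block. In the blocked fit without pair 1 the sign turned for Orc4 (-0.038), Cdt1 (0.039), Mcm7 (0.042) and Pcna (0.069), and without pair 4 for Mcm2 (-0.00056) and Fen1 (-0.044). The mean of probe sets turned Cdt1 (0.011), Mcm7 (0.029) and Rfc2 (-0.0051). Quantile normalization turned Mcm7 (0.042) and Pcna (0.041), and with the block Cdt1 (0.0019), Mcm7 (0.041) and Pcna (0.047). Centring on the median turned Mcm7 (0.024). With 1 array left out, changes ranged from -0.021 to 0.35 for Orc1, -0.16 to 0.18 for Mcm2, -0.023 to 0.23 for Mcm3, -0.022 to 0.18 for Mcm5, -0.080 to 0.0068 for Mcm7, -0.0080 to 0.15 for Rfc2, -0.020 to 0.20 for Pola2, -0.022 to 0.19 for Pold1, -0.068 to 0.16 for Fen1 and -0.15 to 0.48 for Tyms. Nes stayed between 1.60 and 1.86 with 1 array left out (adjusted p from 0.0162 to 0.119). It missed the threshold after centring on the median (1.78), on probe sets (1.73) and without the trend (1.73). The causes of these shifts were not tested. The number of arrays limits the precision, and Tyms lay close to the array medians.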
